A study of Mus musculus with 11 samples.

Results

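The Hox genes of the 4 mouse clusters were described across high-grade gliomas with and without knockdown of Ezh2. A member was any protein-coding gene model of the count table whose symbol was Hoxa, Hoxb, Hoxc or Hoxd followed by its position number. Of 27687 gene models, 37 were members, with 11 in cluster A on chromosome 6, 10 in cluster B on chromosome 11, 7 in cluster C on chromosome 15 and 9 in cluster D on chromosome 2. Hoxc11 and Hoxc12 are not analysed here, so that no sum over cluster C or over positions includes them. RNA was sequenced from 9 tumours labelled as having prolonged Ezh2 knockdown and 2 labelled as controls without it. The tumours grew in NOD-SCID mice, an immunodeficient strain, from glioma initiating cells placed in the brain. Those cells began as subventricular zone neural stem cells of mice aged 7 days that carried conditional alleles of p53, Ink4a/Arf, Krasv12 and LucR, and the alleles were recombined by lentiviral Cre under the CMV promoter. All groups carried the same hairpin construct, FH1-tUTG-shEzh2, which doxycycline switches on, and were sorted for its GFP. The design text describes mice with and without doxycycline, whereas the treatment field gives 2 mg/ml with 1% sucrose for every tumour, so that an effect of the drug and an effect of the hairpin cannot be told apart. No label names separate cell preparations or injections. The p-values therefore reflect how much these libraries varied, and part of that may be technical.

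Hox genes encode homeodomain transcription factors that give cells their position along the head-to-tail axis. Within a cluster, genes of low position number are switched on earlier and further forward than those of high number, and the forebrain, where the subventricular zone lies, normally has little Hox RNA. Ezh2 is the catalytic subunit of Polycomb repressive complex 2, which methylates lysine on histone H3, and silent Hox clusters are among its classic targets.

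The upstream windows of 3 members are shown because each stands for a different pattern below. Hoxa5 had the most counts of any member, Hoxb4 was the member that passed the test between groups, and Hoxd10 had no count in either control. Each line gives the 250 bases before the start of the gene in its own direction, from the RefSeq table (GRCm38.p6), with every CG in capitals. The windows lie at chr6:52204588-52204837 on the minus strand for Hoxa5, chr11:96318017-96318266 on the plus strand for Hoxb4 and chr2:74691641-74691890 on the plus strand for Hoxd10.
Hoxa5: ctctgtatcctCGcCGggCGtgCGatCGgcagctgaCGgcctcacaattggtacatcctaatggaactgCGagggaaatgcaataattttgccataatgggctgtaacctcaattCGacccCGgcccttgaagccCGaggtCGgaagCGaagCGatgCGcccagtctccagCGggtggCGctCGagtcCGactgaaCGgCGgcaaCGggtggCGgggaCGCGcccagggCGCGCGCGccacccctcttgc
Hoxb4: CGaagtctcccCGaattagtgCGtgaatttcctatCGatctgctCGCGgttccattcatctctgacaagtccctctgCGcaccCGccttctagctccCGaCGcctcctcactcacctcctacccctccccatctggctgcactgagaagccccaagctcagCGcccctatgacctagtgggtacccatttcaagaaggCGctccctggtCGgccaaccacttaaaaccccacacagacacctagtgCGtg
Hoxd10: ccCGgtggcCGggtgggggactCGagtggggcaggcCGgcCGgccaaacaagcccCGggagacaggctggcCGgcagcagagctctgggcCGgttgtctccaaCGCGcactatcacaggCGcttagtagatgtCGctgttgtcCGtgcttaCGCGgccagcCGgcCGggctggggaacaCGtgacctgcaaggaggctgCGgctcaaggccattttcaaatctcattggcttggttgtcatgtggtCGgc
The motif searched was CG, which reads the same on both strands and cannot overlap itself. The Hoxa5 window held 28, a number reached by 7.61% of all 32851 windows in the table. The Hoxd10 window held 20, reached by 17.9%, and the Hoxb4 window held 14, reached by 29.4%. Over the 24 windows of the 22 members that matched, the median was 12.5 and the range 2 to 35, against a median of 6 and a range of 0 to 56 over all windows. These are descriptions of letters, and methylation or binding was not measured here.

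The libraries held 11209233 to 18638382 counts, so that 3 counts, taken as the limit for an observed 0 (one-sided, 95%), corresponded to 0.162 to 0.273 CPM (the count scaled by library size and TMM factor) per tumour. Knockdown tumour 6 was the shallowest. Ezh2 itself lay between 7.27 and 30.4 CPM in the knockdown tumours, with a median of 14.6, against 45.3 and 52.7 CPM in the controls. The groups did not overlap, and the log2 fold change was -1.59 ± 0.44 (SE, adjusted p = 0.0225 by edgeR's quasi-likelihood test). The exact two-sided permutation p was 0.018, the smallest that 55 splits can give, and without control 2 the edgeR call was lost (-1.49, adjusted p = 0.138), as it was without control 1 (-1.70, adjusted p = 0.11). Sox2, a neural stem cell factor, was present in every tumour, at 14.7 to 69.2 CPM in knockdown and at 194 and 86.3 CPM in control, whereas Egfr, a growth factor receptor of glioma, was at 77.5 to 178 CPM in knockdown and at 71.1 and 56.8 CPM in control. Gfap, an astrocyte filament, was at 64.9 to 425 CPM in knockdown and at 108 and 15 CPM in control. Xist was above 10 CPM in 7 libraries and not in knockdown tumours 1, 7, 8 and 9. Of the marker lists, the sum of 8 neural stem and glioma genes was 2850 to 4340 CPM in knockdown and 8050 and 6860 CPM in control, most of it Vim, and the sum of 8 neutrophil and myeloid progenitor genes was 5.84 to 13.5 CPM in knockdown and 215 and 64.3 CPM in control. Mast cell genes summed to 13.5 to 74.1 CPM in knockdown and 201 and 261 CPM in control, and 6 haematopoietic stem and progenitor genes to 197 to 313 CPM in knockdown and 110 and 88.9 CPM in control, the larger part being Cd34 and Lmo2, which endothelium also expresses. Macrophage genes summed to 157 to 289 CPM in knockdown and 373 and 760 CPM in control, and endothelium genes to 86.7 to 235 CPM in knockdown and 86.6 and 94.5 CPM in control. Their part in the Hox results was not tested. In bulk tumours, fewer cells of a type and less RNA per cell cannot be told apart.

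Hox RNA in these gliomas came mostly from the front of cluster A. Over the 36 members whose counts are reported here, 5552 of 6268 counts in the 11 tumours fell on Hoxa2 to Hoxa7, which is 88.6%. The A cluster summed to 39.3 ± 22.7 CPM in knockdown tumours (SD, n = 9) and 40.0 ± 10.3 CPM in controls (SD, n = 2). The B cluster summed to 0.489 ± 0.270 CPM in knockdown and 1.92 ± 0.650 CPM in control. The C cluster summed to 0.917 ± 1.4 CPM in knockdown and 0.0385 ± 0.0544 CPM in control. The D cluster summed to 3.27 ± 6.22 CPM in knockdown and 0.582 ± 0.0622 CPM in control. In clusters C and D the SD among knockdown tumours was larger than the mean, and knockdown tumour 6 alone had 4.36 CPM of cluster C and 19.6 CPM of cluster D. Without it the knockdown means were 0.487 CPM for C and 1.22 CPM for D.

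**Figure D1:**
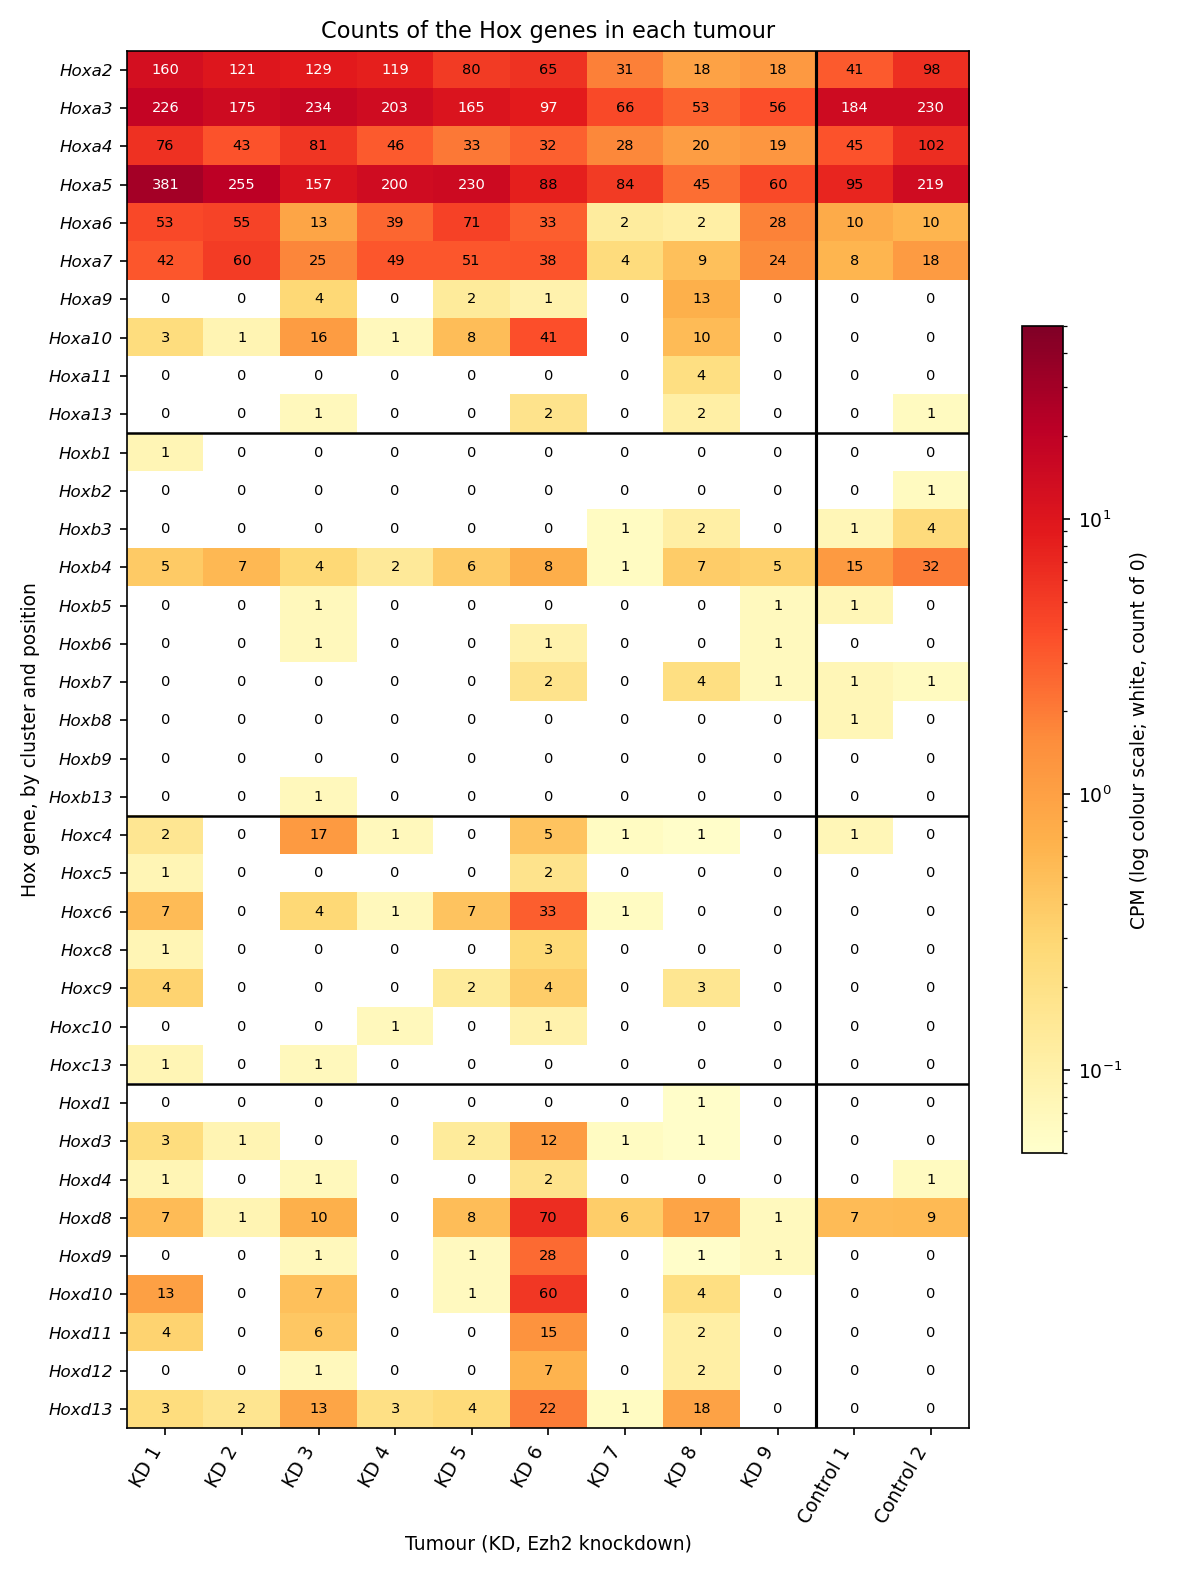
Each row is 1 of 36 Hox genes, ordered by cluster and position, and each column a tumour, with the 9 knockdown tumours left of the 2 controls. Numbers are counts and colour is CPM on a log scale, with white for a count of 0. Most counts are in Hoxa2 to Hoxa7, with 381 of Hoxa5 in knockdown tumour 1, and knockdown tumour 6 also has 70 counts of Hoxd8 and 60 of Hoxd10.

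Most of the other members were near silent. Hoxb9 had no count in any tumour, and 14 members never exceeded 3 counts in a tumour. At 0 in both controls were 20 members, and 19 of these had at least 1 count in some knockdown tumour, although 9 knockdown tumours give more chances of a count than 2 controls. The number of members with at least 1 count was 12 to 27 in knockdown tumours, with a median of 17, against 14 in each control. Knockdown tumours 1, 3, 6 and 8 had 22, 24, 27 and 24 members with a count, and tumours 2, 4 and 9 had 12, 13 and 13, below the controls. At the depth of the shallowest library the expected numbers were 11.7 to 27.0 in knockdown and 13 and 12.7 in control. With more than 3 counts required, knockdown tumours had 7 to 19 members and the controls 9 and 10.

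The test across genes was run on the 16241 gene models that passed the filter on low counts, 12 of them Hox genes. No Hox gene was called higher, 1 was called lower and 11 did not pass. Over all genes tested, 10.3% were called higher and 13% lower, 23.3% in all. The median log2 fold change was 0.63 over the 12 Hox genes and 0.07 over all genes. The 9 tested members with a count in a control had a median of 0.21. Hoxa10, Hoxd10 and Hoxd13 had passed the filter only through the knockdown tumours. So had Hoxd8, with 7 and 9 counts in the controls, and Hoxa6 and Hoxa7 had needed a knockdown tumour as well. Hoxb4, the member called lower, had needed a control. Neither median is therefore a value for all members. The groups did not overlap for 1 of the 12, against 27.2% of all genes tested. With DESeq2, Hoxa10 and Hoxd13 were called higher, where 14% of all genes were, and edgeR without knockdown tumours 6, 7 and 9 called Hoxd13 higher, where 13.2% of all genes were. Nothing is read from these calls, since both genes entered the test only through the tumours in which they had counts.

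Hoxa2 and Hoxa3 act far forward, in the hindbrain, the branchial arches and the throat organs. Hoxa2, which sets the identity of the second arch, lay between 0.970 and 12.5 CPM in knockdown, with a median of 5.91, against 3.15 and 6.14 CPM in control. It was high in tumours 1 to 4 and low in 7 to 9, and both controls fell inside the range (log2 fold change 0.38 ± 0.83 SE, adjusted p = 0.771). Hoxa3, needed for the thymus and parathyroid, lay between 2.86 and 17.7 CPM in knockdown, with a median of 10.6, against 14.2 and 14.4 CPM in control. Knockdown tumours 1 and 3 were above both controls and 7 to 9 far below them (-0.48 ± 0.59, adjusted p = 0.582). The Hoxa3 gene model, at 52118509 to 52163335 on chromosome 6 (mm9), spans Hoxa4, Hoxa5 and Hoxa6 and 4 other models, and how their shared reads were counted is not given in the sources used here.

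Hoxa4 and Hoxa5, which act at neck and upper trunk levels, were also lowest in knockdown tumours 7, 8 and 9. Hoxa4 lay between 1.08 and 5.96 CPM in knockdown, with a median of 2.91, against 3.46 and 6.39 CPM in control (-0.71 ± 0.56, adjusted p = 0.386). Hoxa5, known for its part in lung development, lay between 2.43 and 29.9 CPM in knockdown, with a median of 10.8, against 7.31 and 13.7 CPM in control (0.21 ± 0.75, adjusted p = 0.863). For Hoxa5 the SD among knockdown tumours was larger than the gap between the group means, and without knockdown tumour 1 the Hoxa5 estimate was -0.08. Per kilobase of exon, Hoxa5 averaged 6.49 CPM in knockdown and 5.60 CPM in control, more than any other member in either group. Hoxa2 averaged 3.42 CPM per kilobase in knockdown and 2.62 in control, and Hoxa3, with the longest exons of these genes, averaged 1.70 in knockdown and 2.38 in control.

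Hoxa6 and Hoxa7, which act at trunk levels, had higher means in knockdown tumours than in controls but did not pass the test. Hoxa6 had 4.15, 4.53, 0.897, 2.67, 4.57, 3.00, 0.122, 0.108 and 1.86 CPM in knockdown tumours 1 to 9, against 0.769 and 0.626 CPM in controls 1 and 2. Knockdown tumours 7 and 8 were below both controls and the other 7 above them (1.78 ± 1.19, adjusted p = 0.296). Hoxa7 had 3.29, 4.94, 1.73, 3.36, 3.28, 3.45, 0.244, 0.485 and 1.59 CPM in knockdown, against 0.616 and 1.13 CPM in control. Again tumours 7 and 8 were the low ones and the rest lay above both controls (1.48 ± 0.91, adjusted p = 0.256). In the 7 libraries with Xist, which leave out 1, 7, 8 and 9, both genes were called higher, Hoxa6 at 2.13 (adjusted p = 0.046) and Hoxa7 at 1.89 (adjusted p = 0.0262), against 13.5% of all genes called higher there, a selection made after seeing the data.

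**Figure D2:**
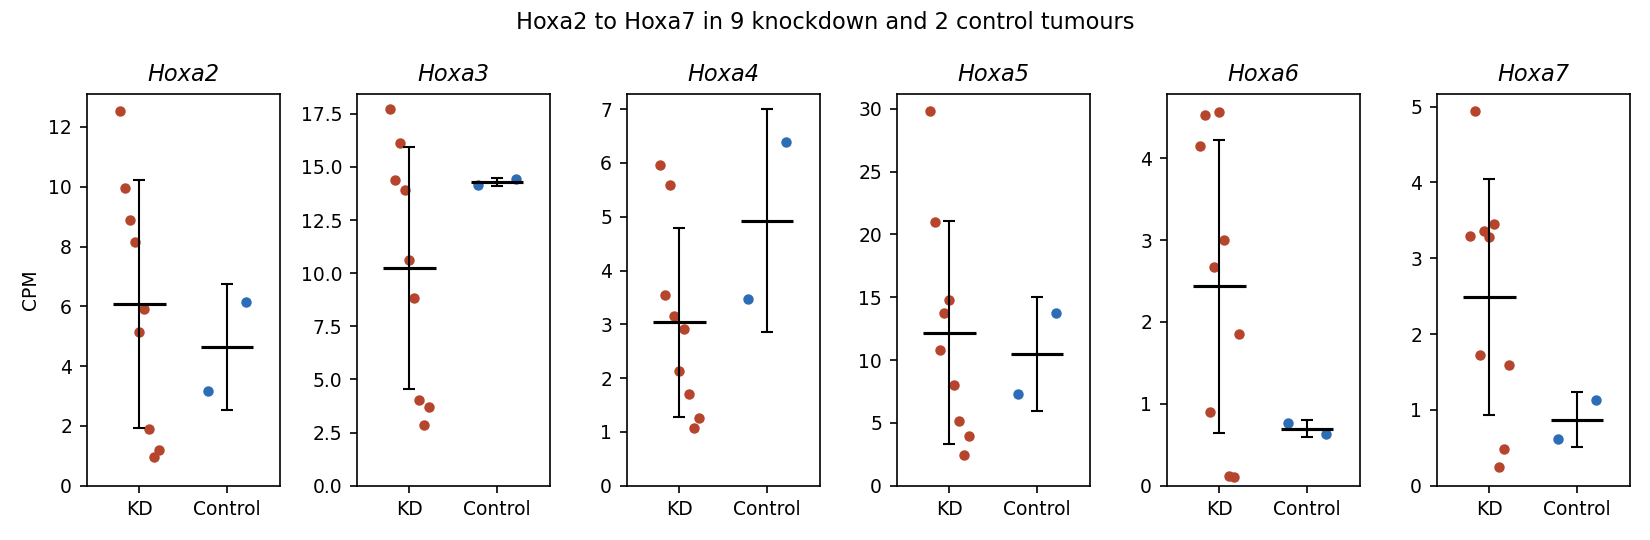
CPM of Hoxa2 to Hoxa7 in the 9 knockdown tumours (red, left) and 2 controls (blue, right), with the mean (bar) and SD (whiskers). The groups overlap for each of the 6 genes, and knockdown values of Hoxa5 span 2.43 to 29.9 CPM.

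The make-up of the front of cluster A can be read without regard to its total. The share below was not planned in advance. It joins Hoxa6 and Hoxa7, which had the largest log2 fold changes of Hoxa2 to Hoxa7, so it partly restates those values and is no separate evidence. Hoxa6 and Hoxa7 took 13.4% ± 7.47 of the Hoxa2 to Hoxa7 counts in knockdown tumours (SD, n = 9) and 4.42% ± 0.396 in controls (SD, n = 2). The share was 10.1% (exact 95% binomial interval 8.27 to 12.2) in knockdown tumour 1 and 25.4% (19.6 to 31.9) in tumour 9, against 4.7% (2.81 to 7.33) in control 1 and 4.14% (2.77 to 5.92) in control 2. Knockdown tumour 7, at 2.79% (1.03 to 5.97), was below both controls, and the other 8 were above them. Of those 8, tumour 3 at 5.95% (4.24 to 8.07) and tumour 8 at 7.48% (3.79 to 13) had intervals that reach into those of the controls. The intervals cover counting error only. Hoxa2 and Hoxa3 together took 44.8% ± 6.22 in knockdown and 53.5% ± 7.28 in control, and Hoxa5 took 32.5% ± 5.87 in knockdown and 28.5% ± 5.30 in control, ranges that overlapped.

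**Figure D3:**
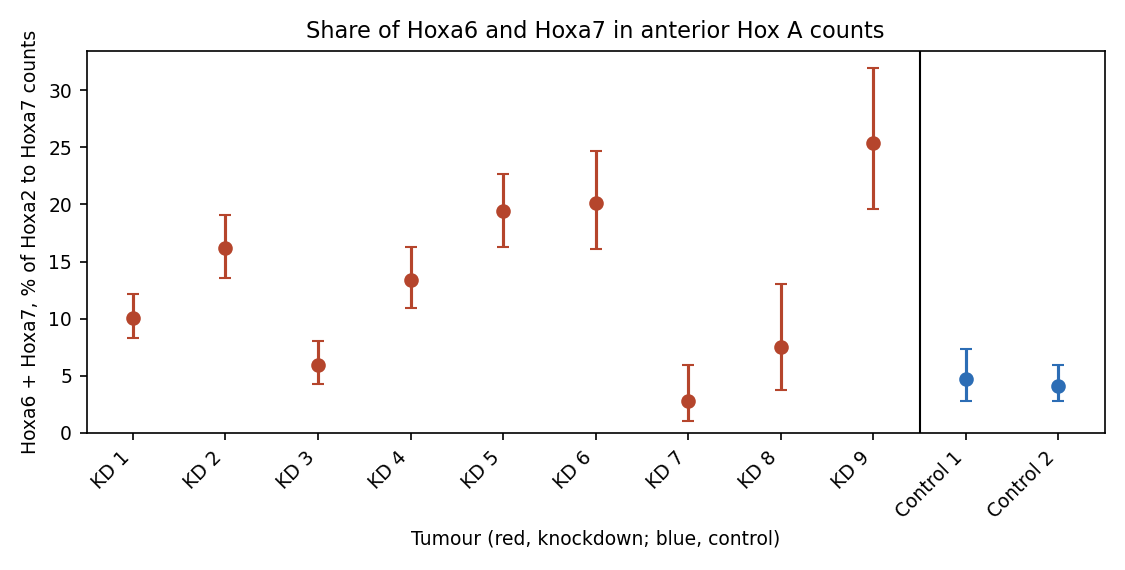
Percent of Hoxa2 to Hoxa7 counts that fell on Hoxa6 and Hoxa7 in each tumour, knockdown (red) left of control (blue), with exact 95% binomial intervals. Of 9 knockdown tumours, 8 lie above both controls, and tumour 7 lies below them at 2.79%.

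Among knockdown tumours the A cluster fell into a high and a low set of values. Its sum was 76.8, 61.7, 48.4, 46.9, 42.7 and 38.3 CPM in knockdown tumours 1 to 6 and 14.7, 10.2 and 14.5 CPM in tumours 7 to 9, against 32.7 and 47.2 CPM in controls. Tumours 7, 8 and 9 were below both controls. Xist was not above 10 CPM in these 3 and in tumour 1, which had the highest sum. Fibroblast and meninges genes summed to 388 CPM in tumour 9 and 1140 to 2360 CPM in the other knockdown tumours, against 2990 and 2690 CPM in controls, and neuron genes to 80.9, 91.8 and 72.1 CPM in tumours 7, 8 and 9 and 20.7 to 61.2 CPM in the other knockdown tumours, against 26.3 and 25.2 CPM in controls. Their part in the Hox levels was not tested.

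Residual Ezh2 differed among the knockdown tumours, so each of the 12 tested Hox genes was set against it on the log2(CPM + 1) scale. Over the 9 tumours Pearson's r lay between -0.227 and 0.421 and Spearman's rho between -0.183 and 0.567. By exact permutation none of the 12 relations passed, the smallest adjusted p being 0.792 for r and 0.533 for rho, and none had an unadjusted p for r under 0.05. Tumours 3 and 9, with the most residual Ezh2 at 30.4 and 30.1 CPM, were the farthest from the median. Without them (n = 7), r was 0.801 to 0.952 for Hoxa2 to Hoxa7 and -0.282 to 0.395 for Hoxa10, Hoxb4, Hoxd8, Hoxd10 and Hoxd13. Hoxa5 then had r = 0.952 (exact permutation p = 0.00159, adjusted p = 0.019) and rho = 0.964. The sign was positive, so that tumours 7 and 8, with the least Ezh2 at 8.31 and 7.27 CPM, were also low in Hoxa5. Ezh2 lies on chromosome 6, as does cluster A, and the part of this in the relation was not tested. Neither the 5 tumours with Xist nor the 4 without are enough for a value within each set, and the 7-tumour relation rests on leaving out tumours 3 and 9.

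**Figure D4:**
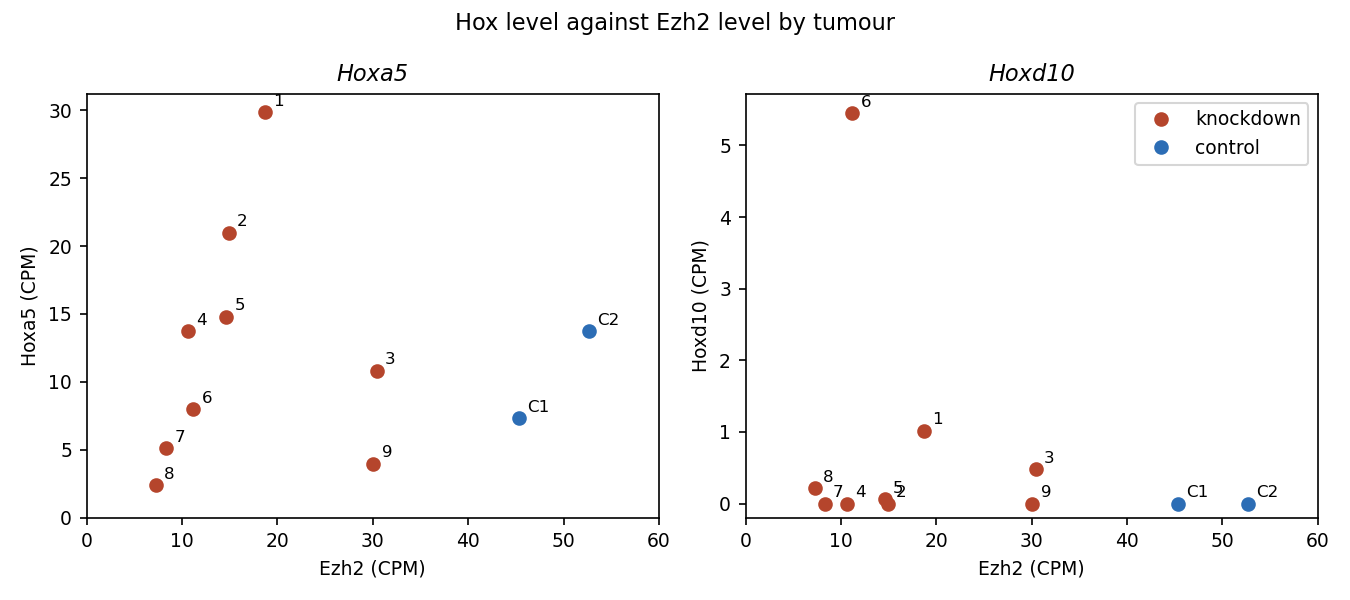
CPM of Hoxa5 (left) and Hoxd10 (right) against CPM of Ezh2, with each tumour numbered, knockdown in red and control in blue. Tumours 3 and 9 lie apart at about 30 CPM of Ezh2, and tumour 6 alone has 5.45 CPM of Hoxd10.

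Hoxb4, known for expanding blood stem cells when overexpressed, was the only member of the 12 tested that passed. It had 5, 7, 4, 2, 6, 8, 1, 7 and 5 counts in knockdown tumours 1 to 9, against 15 and 32 counts in controls 1 and 2. These are 0.0611 to 0.727 CPM in knockdown, with a median of 0.377, and 1.15 and 2.00 CPM in control. All 9 knockdown tumours were below both controls. Hoxb4 had needed a control to pass the filter on low counts, and the controls were the higher group. No difference between the groups is therefore read from its call. The log2 fold change was -2.13 ± 0.52 (SE), which is 4.39-fold lower in knockdown (adjusted p = 0.0136), and 13% of all genes tested were called lower. Without control 2 the estimate was -1.68 and the call was lost (adjusted p = 0.174). The gene lies at 96177998 to 96182952 on chromosome 11 (mm9), and no other gene model overlaps it. Its neighbours were near 0, with at most 4 counts of Hoxb3 (control 2) and of Hoxb7 (knockdown tumour 8) in any tumour and 1 count at most of Hoxb1, Hoxb2, Hoxb5, Hoxb6, Hoxb8 and Hoxb13.

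Posterior members, at positions 8 to 13, had almost no RNA in the controls and most of theirs in a few knockdown tumours. The 17 members of these positions together had 36, 4, 61, 5, 26, 254, 7, 76 and 2 counts in knockdown tumours 1 to 9, against 8 and 10 counts in the controls. Knockdown tumour 6 held 53.9% of the knockdown counts. Tumours 2, 4, 7 and 9 had fewer counts than either control. The control counts were 7 and 9 of Hoxd8, 1 of Hoxb8 in control 1 and 1 of Hoxa13 in control 2.

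Hoxd8, expressed at trunk levels in the embryo, had 7, 1, 10, 0, 8, 70, 6, 17 and 1 counts in knockdown tumours, against 7 and 9 counts in controls. Tumour 6, at 6.36 CPM, stood apart from the other 8 knockdown tumours, which ran from 0 to 0.916 CPM around controls at 0.539 and 0.564 CPM (0.89 ± 1.51, adjusted p = 0.701). Its model overlaps that of the antisense gene 1700109F18Rik, which had 13 counts in tumour 6 and 4 at most elsewhere. Hoxd9 had 28 counts in tumour 6 and no more than 1 in any other tumour, with 0 in both controls. Hoxd10, which acts in lumbar motor neurons and the hindlimb, had 13, 0, 7, 0, 1, 60, 0, 4 and 0 counts in knockdown and 0 in both controls. Against a limit of 3 counts over both controls, its pooled knockdown level was at least 6.29-fold higher, and at least 2.02-fold higher without tumour 6. That bound allows for counting error in the controls only and not for the spread among tumours. Since Hoxd10 entered the test only through knockdown tumours, no difference between the groups is read from the bound. The edgeR test over all tumours did not pass (adjusted p = 0.254).

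Hoxd11, with a role in the forearm, had 15 counts in tumour 6, 6 in tumour 3, 4 in tumour 1 and 2 in tumour 8, and 0 in the other 5 and in the controls. Hoxd13, a gene of digits and genitalia, had 3, 2, 13, 3, 4, 22, 1, 18 and 0 counts in knockdown and 0 in both controls. It had counts in 8 of 9 knockdown tumours. Its pooled level was at least 4.88-fold higher, or at least 3.55-fold without tumour 6, a bound with the same limits as that of Hoxd10. The edgeR test did not pass (adjusted p = 0.111). The same bound was 2.37-fold for Hoxd9, 2.0-fold for Hoxd11 and 1.48-fold for Hoxd3, and without tumour 6 their pooled levels were below the control limit. For Hoxc6 and Hoxa9 the bound was 3.92-fold and 1.48-fold, or 1.62-fold and 1.53-fold without tumour 6. Hoxd3, an anterior member, had 12 counts in tumour 6 and 3 at most elsewhere, with 0 in both controls. Hoxd1, Hoxd4 and Hoxd12 had at most 1, 2 and 7 counts in a tumour, the 7 of Hoxd12 again in tumour 6.

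The posterior genes of cluster A differed from one another in which tumour was high. Hoxa10, a gene of the uterus and of blood progenitors, had 3, 1, 16, 1, 8, 41, 0, 10 and 0 counts in knockdown and 0 in both controls. Its pooled level was at least 5.92-fold higher, or at least 3.15-fold without tumour 6, a bound with the same limits as that of Hoxd10. The edgeR test over all tumours did not pass (adjusted p = 0.178). Hoxa9, best known from myeloid leukaemia, had 13 counts in tumour 8, 4 in tumour 3, 2 in tumour 5 and 1 in tumour 6, and 0 elsewhere and in both controls. Hoxa11 had 4 counts, all in tumour 8, and Hoxa13 had 2 at most. In cluster C, Hoxc6, used in brachial motor neurons, had 33 counts in tumour 6, 7 each in tumours 1 and 5, at most 4 in the other 6 and 0 in both controls. Hoxc4 was highest in tumour 3, with 17 counts, followed by tumour 6 with 5, against 1 and 0 in the controls. The 5 other members of cluster C had at most 4 counts in a tumour and 0 in both controls.

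**Figure D5:**
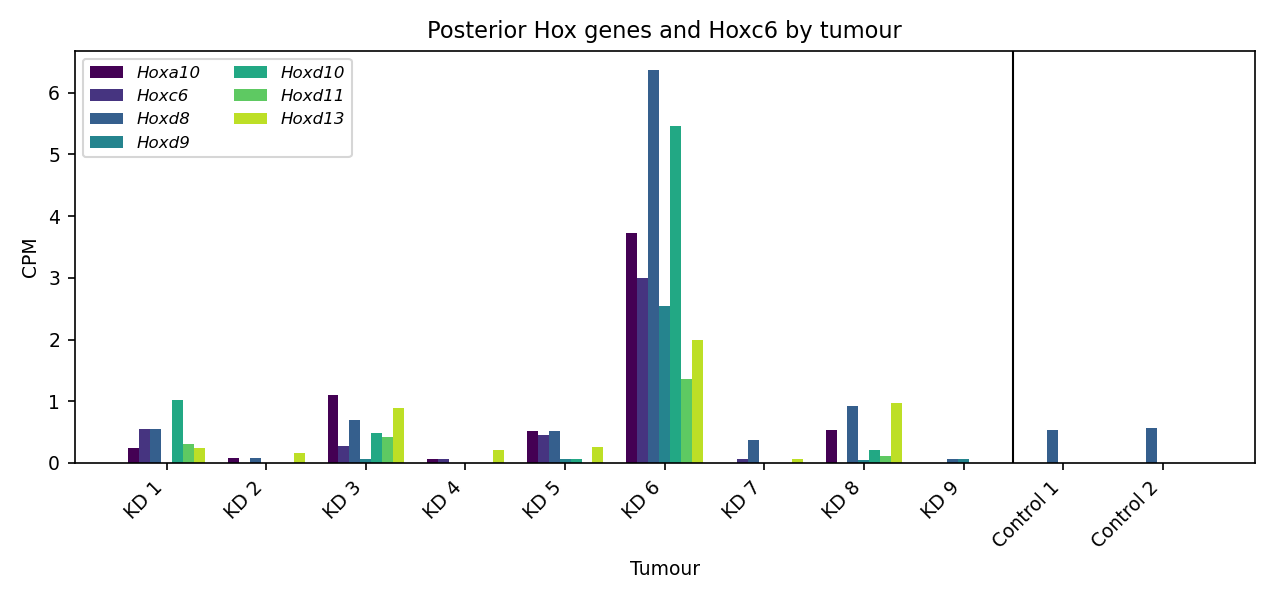
CPM of Hoxa10, Hoxc6, Hoxd8, Hoxd9, Hoxd10, Hoxd11 and Hoxd13 in each tumour, knockdown left of control. Knockdown tumour 6 has the tallest bar of each of the 7 genes, with 6.36 CPM of Hoxd8, and in the controls only Hoxd8 is above 0.

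Outside Hoxa2 to Hoxa7, the other reported members made up 47.5% of the counts of the 36 members in knockdown tumour 6 (exact 95% binomial interval 43.6 to 51.3), 38.5% in tumour 8 (32.3 to 45) and 12.2% in tumour 3 (9.93 to 14.8). They made up 1.35% to 6.11% in the other 6 knockdown tumours, against 6.59% and 6.75% in the controls. When the genes of each library were ranked, after its standing had been seen, by how far they exceeded the highest other library, Hox genes were 5 of the top 10 of 12938 genes in tumour 6 and none of the top 10 in any of the other 10 libraries. The 5 were Hoxd9, Hoxd8, Hoxd10, Hoxc6 and Hoxa10. In no marker list was a gene higher in tumour 6 than in all of the other 10 libraries. Among knockdown tumours alone, Cd4 (4.91 CPM against at most 2.05) and Emr1 (40.9 CPM against at most 35.0) were highest in tumour 6. The controls had 4.77 and 18.1 CPM of Cd4 and 32.2 and 73.7 CPM of Emr1. The summed markers of tumour 6 lay within the range of the other knockdown tumours for most lists. The exceptions were neuron genes at 20.7 CPM (21.4 to 91.8 in the others), erythroid genes at 6.45 CPM (8.17 to 29.2), lymphocyte and natural killer genes at 12.4 CPM (5.44 to 11.8) and skeletal muscle genes at 1.18 CPM (0.392 to 1.16). The mast cell sum of tumour 9 was 74.1 CPM, with 73.1 CPM of Kit. Of the other mast cell genes, the proteases Mcpt1, Mcpt2, Cma1, Cpa3 and Tpsb2 were highest among knockdown tumours in tumour 8 and next in tumour 6, as with Tpsb2 at 6.84 and 3.45 CPM against at most 2.3 CPM in the other 7 and 18.4 and 35.2 CPM in the controls. These are the 2 tumours with the largest shares outside Hoxa2 to Hoxa7, but the share also depends on the Hoxa2 to Hoxa7 counts. Those were 147 in tumour 8 and 639 in tumour 3, while the other members had 92 and 89 counts. By level, positions 8 to 13 summed to 23.1 CPM in tumour 6, 4.09 CPM in tumour 8 and 4.21 CPM in tumour 3. Tumour 3 had 0.621 CPM of Tpsb2, so the level did not follow the proteases there. The part of mast cells in the Hox counts was not tested.

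Hox proteins bind DNA with partner homeodomain proteins of the Pbx, Meis and Pknox families. Of the 9 partners listed, all were tested, 3 rose, none fell and 6 did not pass, where 10.3% of all genes rose and 13% fell. The median log2 fold change was 0.30 against 0.07 over all genes. Pbx2 averaged 89.5 ± 8.61 CPM in knockdown (SD, n = 9) and 60.8 ± 1.01 CPM in control (SD, n = 2), a log2 fold change of 0.56 ± 0.12 (adjusted p = 0.00833). Meis3 averaged 21.6 ± 3.10 CPM in knockdown and 14.2 ± 2.11 CPM in control (0.61 ± 0.19, adjusted p = 0.0373). All 9 knockdown tumours were above both controls for these genes, but no cofactor was called on leaving out either control, and 1 was on leaving out knockdown tumour 2.

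Of 30 regulators that act above Hox genes, which are caudal factors, retinoic acid enzymes and receptors, hindbrain factors and Trithorax group members, 27 were tested, 2 rose, none fell and 25 did not pass, a share of higher calls near the 10.3% of all genes. The median was 0.13. Egr2, the Krox20 factor of the hindbrain, averaged 88.8 ± 35.3 CPM in knockdown and 28.8 ± 6.12 CPM in control (1.63 ± 0.44, adjusted p = 0.0201). Psip1, a chromatin partner of the Mll complex, averaged 155 ± 26.5 CPM in knockdown and 102 ± 17.4 CPM in control (0.60 ± 0.20, adjusted p = 0.0482). Without either control neither was called, and 1 regulator was called higher on leaving out any 1 of knockdown tumours 1 to 6 and 9. Cdx1, Cdx2 and Cyp26c1 did not pass the filter on low counts, and Cdx2, a caudal factor, had 14 counts in knockdown tumour 8, 1 in tumour 1 and 0 in the other 9 tumours.

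Within the clusters lie 17 other gene models, of which 6 were tested, none rose and 1 fell, where 13% of all genes fell. It was Gm15050, an antisense model inside Hoxa3, with 1.24 ± 0.533 CPM in knockdown and 3.07 ± 0.445 CPM in control (-1.31 ± 0.43, adjusted p = 0.0464). Of the 24 nearest coding genes outside the clusters, 21 were tested, 2 rose, 5 fell and 14 did not pass, where 10.3% of all genes rose and 13% fell. Skap1, an adaptor of T-cell signalling beside cluster B, had 1 to 5 counts in knockdown tumours and 15 and 26 in controls (-2.76 ± 0.43, adjusted p = 0.00126). It had passed the filter on low counts only through the controls, the higher group, so no difference between the groups is read from its call. Smug1, a DNA repair glycosylase beside cluster C, averaged 14.1 ± 2.49 CPM in knockdown and 28.0 ± 6.54 CPM in control (-0.99 ± 0.20, adjusted p = 0.00531), and Skap2, beside cluster A, averaged 54.6 ± 11.04 CPM in knockdown and 95.9 ± 32.5 CPM in control (-0.81 ± 0.24, adjusted p = 0.0277). Hibadh, a mitochondrial enzyme gene beside cluster A, averaged 78.5 ± 10.8 CPM in knockdown and 49.1 ± 0.799 CPM in control (0.68 ± 0.15, adjusted p = 0.0101). Mtx2, beside cluster D, averaged 60.6 ± 9.28 CPM in knockdown and 38.2 ± 2.18 CPM in control (0.66 ± 0.17, adjusted p = 0.0184).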

How the data were processed

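RNA of 11 tumours was sequenced on a HiSeq2000 from TruSeq libraries, per the labels' protocols. The deposited table holds whole-number counts of reads per gene for each tumour. Per the submitters' processing notes, TopHat 1.4.0, HTSeq and the build mm9 were used. For settings, read filters and whether counting used strand, nothing is given in the sources used here. If it did not, overlapping models (Hoxa3 with its inner genes, Hoxd8 with 1700109F18Rik) cannot be told apart by their reads. Groups and replicate numbers came from the sample titles.

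The test of counts was edgeR 4.0.16 under R 4.3.3 (filterByExpr, TMM, quasi-likelihood F-test, all 11 libraries, no covariates). The p-values were adjusted by Benjamini-Hochberg over the 16241 genes tested, with a threshold of 0.05, and every adjusted p in the text is from that test unless another is named. The script was tested on simulated data. DESeq2 1.42.0 and limma 3.58.1 were alternatives. CPM were scaled by TMM, and CPM per kilobase used exon lengths of GENCODE M21. Pearson's r of log2 CPM (prior count 2) was 0.926 to 0.984 among knockdown tumours and 0.964 between controls, and chi-square over degrees of freedom between replicates was at least 8.42, so no library was a copy. The ranking of each library's genes used those above 2 CPM and a pseudocount of 0.5. A member was described with its values when it passed the filter or had at least 10 counts in a tumour (18 members). A member and a few other genes are not reported here, and shares of Hox counts leave that member out. From each other list up to 3 genes that rose and 3 that fell were named, by smallest p. The members and lists were chosen with earlier results of these data known.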

Additional observations from a re-analysis of the deposited data

Results flagged for a closer look

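Each of 22 values, for the described members and the cluster sums, was checked among the 9 knockdown tumours for a tumour far from the rest. The gap from the highest or lowest tumour to its nearest neighbour was divided by the whole range. This ratio was set against Dixon's limit of 0.493 for 9 samples. Chance passes that limit in about 1 in 20 groups of normally distributed values, and counts near 0 are not so distributed. Hoxa9, Hoxc4, Hoxc6, Hoxd3, Hoxd9 and Hoxd11 were described only because a tumour reached 10 counts, so a high tumour was part of their selection. Hoxa10, Hoxd8, Hoxd10 and Hoxd13 had passed the filter only through knockdown tumours, so high tumours were part of their selection too. The limit was passed by 12 of the 22, which is therefore not set against that rate, and the members of a cluster are not independent of each other. Knockdown tumour 6 was the distant one for 10 of them. Its ratio was 0.973 for Hoxd9, 0.856 for Hoxd8, 0.817 for Hoxc6, 0.813 for Hoxd10, 0.784 for Hoxd3, 0.704 for Hoxa10, 0.696 for Hoxd11 and 0.515 for Hoxd13. For the summed clusters the ratio of tumour 6 was 0.869 for D and 0.652 for C. Knockdown tumour 8 was distant for Hoxa9, with a ratio of 0.606, and knockdown tumour 3 for Hoxc4, with a ratio of 0.613. In all 12 the distant tumour was the high one.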

How the results depend on the processing

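Of the 12 tested Hox genes, 2 were called higher with DESeq2 (Hoxa10 and Hoxd13, both at 0 in the controls and tested only through their knockdown counts), 2 in the 7 libraries with Xist and 1 (Hoxd13) without knockdown tumours 6, 7 and 9, the last 2 settings chosen after seeing the data. Leaving out each library, none was called higher, and 0 to 1 were called lower. Cofactors called higher numbered 3, but 1 with no filter, 0 against a 1.5-fold change, 1 in the libraries with Xist and 0 to 3 on leaving out each library. Upstream regulators called higher numbered 2, but 1 with RLE size factors, 1 with no filter, 4 with DESeq2, 0 against a 1.5-fold change, 4 in the libraries with Xist and 0 to 3 on leaving out each library. Regulators called lower numbered 3 in the libraries with Xist and 1 without knockdown tumours 6, 7 and 9. Hoxa10, Hoxd8 and Hoxd10 gave no value in some settings, among them without knockdown tumour 6, because they no longer passed the filter. Signs turned for genes that had not passed. Hoxa2 was -0.11 with limma-voom and -0.022 (without control 1) to 0.935 (without control 2) on leaving out each library. Hoxa5 was -0.21 with limma-voom and -0.175 (without control 1) to 0.731 (without control 2), with -0.079 without knockdown tumour 1. Hoxd8 was -0.60 with limma-voom, and the r of Hoxd10 with Ezh2 was 0.0264 at a pseudocount of 0.1. Ezh2 did not pass against a 1.5-fold change (-1.59, adjusted p = 0.0906). Without its most abundant member, the A cluster was 29.5 CPM in control, the B cluster 0.127 CPM in knockdown and 0.342 CPM in control, and the D cluster 0.0313 CPM in control. Detected members averaged 11.6 in knockdown and 9.5 in control above 3 counts, 8.44 and 7.5 at 10 counts or more, and 12.9 in control at equal depth. The causes were not tested.

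Knockdown and control share replicate numbers 1 and 2 only, and no label ties them. The deviations of same-numbered tumours from their group means correlated at -0.14 for number 1 and 0.017 for number 2. With the replicate number as a block, 0 Hox genes were called lower (Hoxb4 at -1.68, adjusted p = 0.13), 0 cofactors and 4 regulators higher, Ezh2 was at -1.55 (adjusted p = 0.0573), Hoxa3 at 0.16 and Hoxd8 at -0.91. The precision of members outside Hoxa2 to Hoxa7 is limited by their few counts.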
